A study of Mus musculus with 9 samples.

Results

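Distal intergenic cytosines were CpG cytosines that lay outside every annotated gene body and more than 100000 bp from the nearest transcription start of any gene in GENCODE vM1 (mm9). There were 34222 of them among the 838481 cytosines measured in all libraries (4.08%). They were chosen by position alone. They came from 23850 CpGs on 19 autosomes, and in 10372 of these the cytosine of each strand was measured. Their median distance to a start was 170916 bp (quartiles 126678 and 258621 bp), the farthest lay 1090237 bp away and 1419 lay beyond 500 kb. Chromosome 8 held the most (2943), while gene-dense chromosome 11 held 453, or 0.696% of its cytosines. The 3438 members at 100 to 110 kb averaged 69.4% methylation over the libraries, and the 4190 intergenic cytosines left out at 90 to 100 kb averaged 64.3%.

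The measurements were 9 libraries of reduced representation bisulfite sequencing (RRBS), in which DNA is cut with restriction enzymes at CCGG and TCGA and bisulfite turns unmethylated cytosine into a base read as thymine. The 4 brown libraries were brown adipocytes of day 6 treated for 4 h with norepinephrine (BAT + NE) and brown adipocytes at days 0, 4 and 6 of differentiation (BAT). The 5 white libraries were white adipocytes differentiated in the presence of norepinephrine and harvested on day 4 or day 6 (BWAT, named brown-induced white by the study), and white adipocytes at days 0, 4 and 6 (WAT). All cells were primary cultures from BL6 mice of 3 weeks, brown preadipocytes from interscapular brown fat and white preadipocytes from inguinal fat, and all except day 0 had received insulin, dexamethasone, isobutylmethylxanthine and rosiglitazone. The preadipocytes were an enriched stromal vascular fraction, and other cells of that fraction may be present. Each condition was 1 library with no replicate, so brown and white are compared over libraries of different days, and a p-value reflects the spread of these particular libraries, which may not be separate cultures. The authors required 10 reads at every cytosine in each library, and read depth is otherwise unknown here.

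As background, CpG methylation is written by DNA methyltransferases and is the usual state of mammalian DNA between genes. Transcription factors bound at distal enhancers, which can act on genes over long stretches of sequence, go along with locally reduced methylation, and such elements are often specific to a cell lineage. CpG islands, dense clusters of CpG, are mostly unmethylated. Gene names below give the nearest protein-coding gene on a side of a region, unless genes of any type are stated. Annotated genes of other types can lie nearer. The names do not say which gene, if any, a region acts on.

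Promoters of marker genes of several cell types were read in the same libraries. Of 9 adipocyte markers 4 had a measured promoter (Pparg, Cebpa, Cidea and Lpl), and these averaged 0.615 to 3.35% in brown and 0.597 to 1.46% in white libraries. The 4 measured of 10 endothelial markers ran from 6.21 to 68.5% in brown and 6.86 to 72.2% in white. Among these Pecam1, the endothelial adhesion molecule, differed most, at 48.6% in brown against 72.2% in white. The 4 measured of 11 haematopoietic promoters ran from 3.42 to 89.3% in brown and 2.76 to 88.6% in white, and the 9 of 10 skeletal muscle promoters from 1.71 to 87.1% in brown and 2.38 to 93.8% in white. The muscle promoters that differed most were those of Myf5, a regulator of the myogenic lineage (82.35% in brown against 93.84% in white), and Acta1, skeletal alpha actin (31.15% against 23.55%). Low levels were not particular to the adipocyte markers, as Coro1a (3.42% in brown) and Myod1 (1.71% in brown) were low as well. These promoters therefore cannot verify the labelled cell types. The part of other cell types in the lineage differences below was not tested.

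The 8 stretches given here carry the main findings. They are the regions with the widest difference in each direction, a pair near Runx1 that differed in opposite directions, both regions that lost methylation after day 0, the longest run of cytosines that differed at every day, and an unmethylated region far from any gene. Each is the plus strand of NCBIM37 (mm9) with 10 flanking bases on both sides, and capitals mark the CpG dinucleotides measured in the libraries.
Near Lsamp, lower in brown (chr16:41007947-41008078): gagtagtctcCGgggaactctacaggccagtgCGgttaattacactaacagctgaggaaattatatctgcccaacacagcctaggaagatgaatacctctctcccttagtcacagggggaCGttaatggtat
Near Cadm1, higher in brown (chr9:47833799-47833951): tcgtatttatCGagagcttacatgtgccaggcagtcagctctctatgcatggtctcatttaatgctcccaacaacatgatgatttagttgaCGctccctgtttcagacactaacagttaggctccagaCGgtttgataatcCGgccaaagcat
Near Runx1, higher in brown (chr16:93054911-93055071): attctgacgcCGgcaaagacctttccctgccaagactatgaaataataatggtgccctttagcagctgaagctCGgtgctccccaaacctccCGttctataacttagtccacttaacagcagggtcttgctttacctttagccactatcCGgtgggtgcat
Near Runx1, lower in brown (chr16:93150606-93150744): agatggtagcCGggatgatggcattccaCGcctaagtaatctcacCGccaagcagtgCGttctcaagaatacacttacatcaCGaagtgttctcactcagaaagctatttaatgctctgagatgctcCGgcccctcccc
Between Irf2bp2 and Tomm20, lower after day 0 (chr8:129298770-129298928): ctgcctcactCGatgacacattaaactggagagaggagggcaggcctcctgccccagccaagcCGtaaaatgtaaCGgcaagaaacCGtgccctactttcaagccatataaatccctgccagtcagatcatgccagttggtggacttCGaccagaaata
Between Ifng and Dyrk2, lower after day 0 (chr10:118187173-118187276): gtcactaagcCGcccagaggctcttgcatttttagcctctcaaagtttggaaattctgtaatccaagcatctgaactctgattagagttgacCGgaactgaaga
Cryba4 desert, lower in brown (chr5:112386786-112386945): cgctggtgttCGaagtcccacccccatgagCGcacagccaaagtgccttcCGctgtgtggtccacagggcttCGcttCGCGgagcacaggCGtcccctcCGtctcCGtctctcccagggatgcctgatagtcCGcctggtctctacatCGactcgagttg
Near Efcab1, low in all libraries (chr16:15085051-15085313): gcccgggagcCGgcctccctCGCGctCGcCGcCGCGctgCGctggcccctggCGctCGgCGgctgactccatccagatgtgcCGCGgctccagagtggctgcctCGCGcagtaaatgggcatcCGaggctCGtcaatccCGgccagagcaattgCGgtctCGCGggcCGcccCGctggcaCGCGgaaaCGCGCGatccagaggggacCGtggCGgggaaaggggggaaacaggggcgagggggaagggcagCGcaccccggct

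The stretch near Lsamp had 3 measured CpGs in 132 bp and a GC content of 47.7%, and the one near Cadm1 had 4 in 153 bp with 45.1% GC. The unmethylated stretch near Efcab1 had 31 in 263 bp with 73.8% GC. In windows of 500 bp the 20 regions of widest difference had means of 3.75 to 17.3 CpGs, so that they lay on both sides of the distal median. Distal cytosines as a whole sat in CpG-poor sequence, with a median of 9 CpGs and 47.4% GC in 500 bp and an observed over expected CpG ratio of 0.329. Nearer intergenic cytosines, those within 100 kb of a start, had 10 CpGs, 49.6% GC and a ratio of 0.355. Of the distal cytosines 35.97% lay inside a CCGG or TCGA site, against 31.9% of the nearer ones.

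The first question was how methylated these cytosines were and whether brown and white cells differed. Distal sequence was highly methylated in every library, and slightly less so in brown cells. The mean was 69.96% in BAT + NE, and 69.7%, 69.7% and 69.8% at BAT days 0, 4 and 6. It was 70.1% and 70.5% in BWAT of days 4 and 6, and 70.9%, 70.3% and 70.7% in WAT of days 0, 4 and 6. Every brown library lay below every white one. Brown libraries averaged 69.8% ± 0.115 (SD, n = 4) and white libraries 70.5% ± 0.307 (SD, n = 5), a difference of −0.68 points (exact permutation test over libraries, two-sided, p = 0.0159, the smallest it can give). With 3 BAT against 3 WAT libraries the difference was −0.86 points, and there the exact test cannot go below the p = 0.1 it gave.

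At each day BAT had more partly methylated cytosines and fewer highly methylated ones than WAT. At day 0, 21.1% of distal cytosines in BAT and 19.6% in WAT were between 30 and 70% methylated, 64.5% in BAT and 66.7% in WAT were above 70%, and 14.5% in BAT and 13.7% in WAT were below 30%. Partly methylated shares were closer later, at 21.49% in BAT and 20.81% in WAT at day 4 and 21.75% and 20.87% at day 6. BWAT day 4, at 21.18%, lay above BAT day 0, so the lineages overlapped in this share. Mean methylation was lower in brown libraries on 17 of 19 chromosomes, with a median difference of −0.83 points. The difference ran to −1.29 points on chromosome 5, and was above 0 on chromosomes 6 and 11, at 0.245 and 0.0208 points.

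Methylation was higher in each class of distance farther from genes. Intergenic cytosines at 0.5 to 10 kb averaged 53.0% over the 9 libraries, those at 10 to 50 kb 61.7%, those at 50 to 100 kb 65.2%, those at 100 to 200 kb 69.0%, those at 200 to 500 kb 71.8% and those beyond 500 kb 74.0%. The brown minus white difference was −0.69 points at 100 to 200 kb and −0.77 at 200 to 500 kb (exact permutation p = 0.0159 in both). Beyond 500 kb it was 0.128 points (exact p = 0.683), with 74.1% ± 0.155 in brown (SD, n = 4) and 73.96% ± 0.567 in white (SD, n = 5). These were 6 distance classes, and over them the smallest p of 0.0159 would be 0.0238 after Benjamini-Hochberg adjustment. A lineage difference that was wider far from genes was not detected. The distal mean exceeded the nearer intergenic mean by 10.7 points in brown and 10.8 in white, which differed by −0.125 points (exact p = 0.508). Without BAT day 0 this became −0.225 points (exact p = 0.0357).

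**Figure D1:**
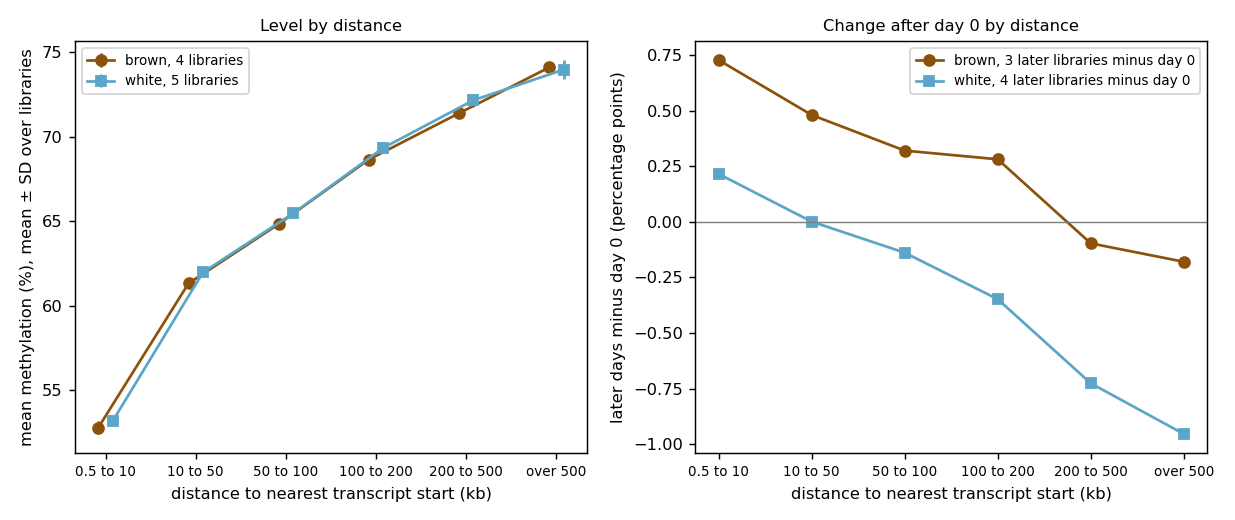
Left, mean methylation (%) of intergenic cytosines by distance to the nearest transcript start in kb, mean ± SD over 4 brown and 5 white libraries, on an axis that does not start at 0. Right, mean of the later libraries minus day 0 in percentage points for each lineage. Levels ran between 53.0% nearest to genes and 74.0% farthest from them, and the change after day 0 was below 0 in white libraries from 50 kb outward and in brown libraries from 200 kb outward.

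The next question was how distal methylation moved during differentiation. Brown libraries stood slightly above their day 0 and white libraries below theirs. The change from day 0 was 0.0202 points at BAT day 4, 0.127 at BAT day 6 and 0.250 in BAT + NE. It was −0.58 and −0.24 points at WAT days 4 and 6, and −0.80 and −0.39 in BWAT. The white mean was below day 0 on all 19 chromosomes, and the brown mean was above it on 12. Over both lineages the later libraries averaged 70.2% ± 0.347 (SD, n = 7) and the day 0 libraries 70.3% ± 0.838 (SD, n = 2), a difference of −0.15 points (exact permutation p = 0.722). This direction rested on restriction-site cytosines and on WAT day 0. It was 0.103 points without cytosines in CCGG or TCGA and 0.447 points without the WAT day 0 library. Inside the sites all 7 later libraries were lower than their day 0, with changes of −0.0997 to −1.38 points. Outside them WAT and BWAT of day 6 stood at 0.0166 and 0.00359 points.

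**Figure D2:**
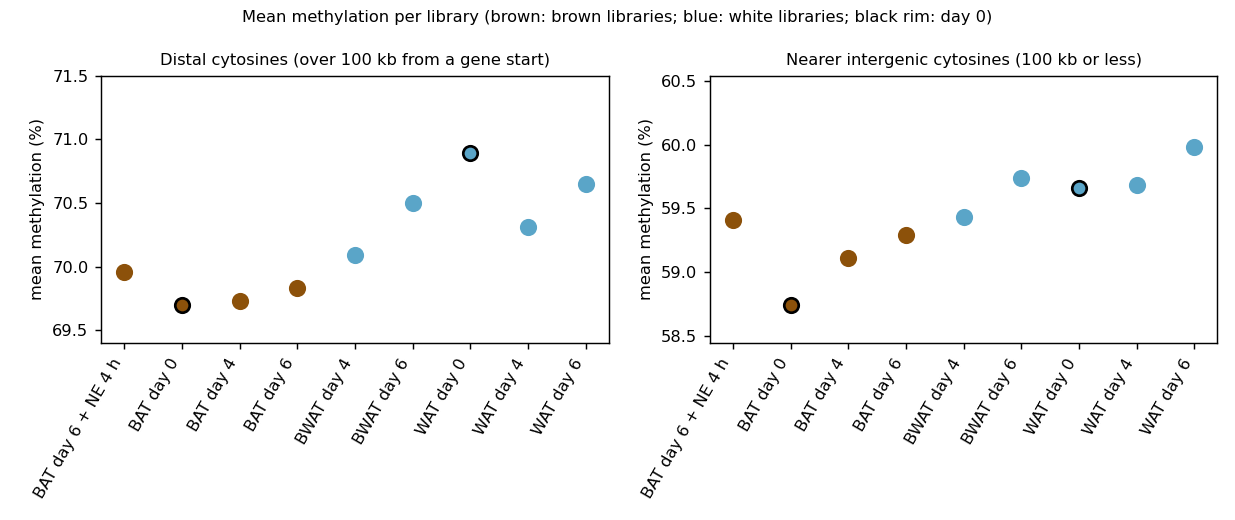
Mean methylation (%) in each library over the distal cytosines (left) and over intergenic cytosines within 100 kb of a transcript start (right); both axes span 2.1 points and do not start at 0. At distal cytosines the 4 brown libraries lay at 69.7 to 69.96%, all below the 5 white libraries at 70.1 to 70.9%.

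Sequence nearer to genes stood mostly above day 0. Nearer intergenic cytosines stood 0.373, 0.554 and 0.670 points above day 0 in BAT day 4, BAT day 6 and BAT + NE, and in the 4 later white libraries the change ran from −0.23 to 0.316 points. Introns were above day 0 in all 7 later libraries. The excess of distal over nearer methylation was smaller at every later day than at day 0 of the same lineage. It was 10.6, 10.54 and 10.6 points in BAT day 4, BAT day 6 and BAT + NE, against 10.97 at BAT day 0. It was 10.7 and 10.8 points in BWAT and 10.6 and 10.7 in WAT of days 4 and 6, against 11.2 at WAT day 0. The mean excess was 10.6 points ± 0.0780 at later days (SD, n = 7) and 11.1 ± 0.187 at day 0 (SD, n = 2), a difference of −0.47 points. The exact permutation p of 0.0556 is the smallest that 7 against 2 libraries allow, so this design could not reach 0.05. The change after day 0 was lower in each farther distance class, in both lineages. At 0.5 to 10 kb it was 0.727 points in brown and 0.215 in white, at 100 to 200 kb 0.281 and −0.35, and beyond 500 kb −0.18 and −0.95.

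Differences with norepinephrine were small. BAT + NE was 0.124 points above BAT day 6, and BWAT was −0.22 points from WAT at day 4 and −0.15 at day 6. With 1 library on each side these differences have no test.

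Shared differences were measured in 9207 distal CpGs outside restriction sites with both strands, since both strands of a CpG usually share their methylation and do not share their reads. The covariance of the forward and the reverse difference estimates the variance of a true difference. Between BAT and WAT it was 51.2 squared percentage points at day 0, 55.8 at day 4 and 54.4 at day 6, so that the difference common to both strands had an SD between 7.15 and 7.47 points, and the covariance was above 0 on all 19 chromosomes at each day. In nearer intergenic CpGs it was 35.9 to 37.5 and in introns 32.4 to 32.9. For differentiation the covariance was smaller in all 3 classes. From day 0 to day 6 distal CpGs gave 6.34 in BAT and 5.76 in WAT, nearer CpGs 10.7 and 7.74, and introns 13.3 and 9.21. From day 0 to day 4 distal CpGs gave 3.83 in BAT and 5.30 in WAT, nearer CpGs 7.70 and 4.30, and introns 9.05 and 5.65, so that the distal value lay below the nearer one in 3 of these 4 comparisons and above it in WAT at day 4. The distal covariance was 2.12 for BAT + NE against BAT day 6, and −0.68 and 0.324 for BWAT against WAT at days 4 and 6. These values describe single pairs of libraries, and the order of the classes was not tested. Within a library, forward and reverse cytosines of a CpG differed with an SD of 8.396 to 10.4 points.

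At single cytosines, 673 distal cytosines (1.97%) were at least 10 points higher in BAT than in WAT at all 3 days and 1206 (3.52%) at least 10 points lower. Together these were 5.49% of distal cytosines, against 4.24% of nearer intergenic ones. Over the whole table the shares were 0.888% and 1.62%, or 2.51% together. Single cytosines were not tested one by one. At day 0 alone BAT was higher by 10 points or more at 4236 cytosines and lower at 5822, a share of 42.1% higher. Both strands of a CpG and neighbouring cytosines are not independent, so no interval is given. The share was 46.1% at day 4 and 45.3% at day 6.

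Regions were then tested, each a run of at least 4 measured cytosines with gaps of at most 300 bp. There were 3935 distal regions with a median of 6 cytosines in 130 bp, which took in 26540 distal cytosines and left 7682 outside. In limma over all 67233 regions, on log2 of methylated over unmethylated with an offset of 1 and with a term for day 0 against later days, 524 distal regions passed an adjusted p of 0.05 between brown and white (13.3%), 190 higher and 334 lower in brown. The background was 9.43% of all regions, 3.52% higher and 5.91% lower. Nearer intergenic regions passed in 12% of cases, gene bodies in 10.7% and promoters in 3.02%. The median size of a called difference was 12.6 points, 345 regions differed by 10 points or more, 108 by 20 or more and 30 by 30 or more. In 664 distal regions, 242 higher and 422 lower, the ranges of the brown and the white libraries did not overlap, where 12.3% of all regions did so (4.55% higher and 7.76% lower). With the BAT and WAT libraries alone and day as a factor 155 were called, 48 higher and 107 lower, at a background of 2.28%.

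Partly methylated regions made up most of the calls. Of 984 distal regions with a mean of 30 to 70%, 279 were called (28.4%), of 308 below 30% 69 (22.4%) and of 2643 above 70% 176 (6.66%). The same shares in nearer intergenic regions were 22.6%, 11.2% and 7.55%. These means took in both lineages, so a wide difference could itself place a region in the middle class. The called regions had a median level of 60.9%, and those not called 80.8%, with similar CpG density (9.06 and 8.67 CpGs in 500 bp). By distance 13.9% were called at 100 to 200 kb, 13.1% at 200 to 500 kb and 10 of 160 (6.25%) beyond 500 kb. On chromosome 16, 16 of 18 called regions were lower in brown, and on chromosome 4, 4 of 11.

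The libraries with norepinephrine lay close to their own lineage in these regions. Over the 155 regions called from BAT and WAT alone, which did not use them, BAT + NE was closer to the BAT than to the WAT mean in 148, with a median position of 97.4% on a scale of 0 for WAT and 100 for BAT. BWAT was closer to WAT in 148 at day 4 and in 150 at day 6, with median positions of 0.636% and 2.85%.

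The widest difference in the lower direction lay at chr16:41007957-41008068 (5 cytosines), 524903 bp from Lsamp, a neural cell adhesion gene. Its methylation was 26.0%, 27.8%, 23.7% and 26.4% in BAT day 0, BAT day 4, BAT day 6 and BAT + NE. It was 73.3% and 67.4% in BWAT of days 4 and 6, and 71.4%, 68.2% and 69.95% in WAT of days 0, 4 and 6. No brown library came near the white ones at any day. The difference was −44.07 points (log2 odds −2.68, SE 0.13, limma adjusted p = 7.4e-06).

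In the upper direction the widest was chr9:47833809-47833941 (6 cytosines), 168089 bp from Cadm1, a cell adhesion molecule of the immunoglobulin superfamily. It was at 58.7%, 65.8%, 54.6% and 59.2% in BAT day 0, day 4, day 6 and BAT + NE. White libraries held 10.1% and 11% in BWAT and 15.0%, 12.2% and 12.1% in WAT. The difference was 47.5 points (log2 odds 3.32, SE 0.17, limma adjusted p = 8.2e-06).

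Runx1, a transcription factor best known from blood formation, was flanked by a pair of wide differences that ran in opposite directions. At chr16:93054921-93055061 (6 cytosines), 228610 bp from the gene, the level was 57.6%, 61.2%, 75.9% and 61.3% in BAT day 0, day 4, day 6 and BAT + NE, 17.6% and 22.8% in BWAT and 18.9%, 23.9% and 21.4% in WAT. Brown was 43.07 points higher (limma adjusted p = 8.2e-05). At chr16:93150616-93150734 (10 cytosines), 95.6 kb farther out and 324305 bp from the gene, it was 40.9%, 37.7%, 35.0% and 53.1% in the brown libraries, 73.2% and 83.1% in BWAT and 75.8%, 76.0% and 73.8% in WAT. Brown was lower there (difference −34.68 points, limma adjusted p = 5.4e-04). The microRNA gene Mir802 lay nearer to this region, at 219231 bp. Of the 12 distal regions between Runx1 and Setd4 another was called, chr16:92929093-92929218 with 51.7% ± 1.80 in brown (SD, n = 4) and 63.1% ± 3.33 in white (SD, n = 5). The other 9 included regions at 95.6% in brown and 96.2% in white, and at 9.80% and 11.8%.

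The remaining regions of widest difference were also far apart between lineages. Higher in brown were chr15:31810301-31810336 near Fam173b (77.5% against 30.1% in white), chr4:22965786-22965833 between Pou3f2, a POU factor of neural development, and Mms22l (68.7% against 23.4%), and chr10:31955251-31955403 (66.3% against 31.5%). The last lies between separate annotated entries that all carry the name Nkain2, so its place outside a gene depends on the annotation. The others were chr8:8969029-8969147 between Arglu1 and Fam155a (63.3% against 31.9%), chr7:145165659-145165873 between Glrx3 and Tcerg1l (65.4% against 34.2%), chr15:88145631-88145721 between Fam19a5 and Brd1 (42.3% against 11.2%), chr2:171498638-171498793 between Dok5 and Cbln4 (68.5% against 37.8%) and chr9:43372322-43372456 between Trim29 and Pvrl1, which encodes nectin-1 (77.2% against 47.2%). All 10 of the upper regions had adjusted p-values between 5.2e-06 and 8.7e-04.

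Lower in brown were chr14:10071491-10071640 near Fhit, a tumour suppressor gene (33.4% against 74.7% in white), chr1:159633875-159633939 near Sec16b, a gene of endoplasmic reticulum export (20.95% against 58.6%), chr8:62346607-62346688 (36.02% against 72.7%) and chr1:42472979-42473111 with 15 cytosines (35.9% against 71.99%). Next came chr15:86616519-86616623 near Tbc1d22a (11.9% against 47.7%), chr10:111279563-111279713 between Phlda1 and Krr1 (45.6% against 81.1%) and chr18:81688178-81688282, 504861 bp from Sall3, a zinc finger factor of limb and neural development (11.9% against 47.3%). The last was chr14:62763680-62763768 near Dleu7 (7.32% against 41.9%), whose call was lost with BAT and WAT alone (adjusted p = 0.0595). In all 20 regions the ranges of the brown and white libraries were separate, which the choice by size makes likely.

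**Figure D3:**
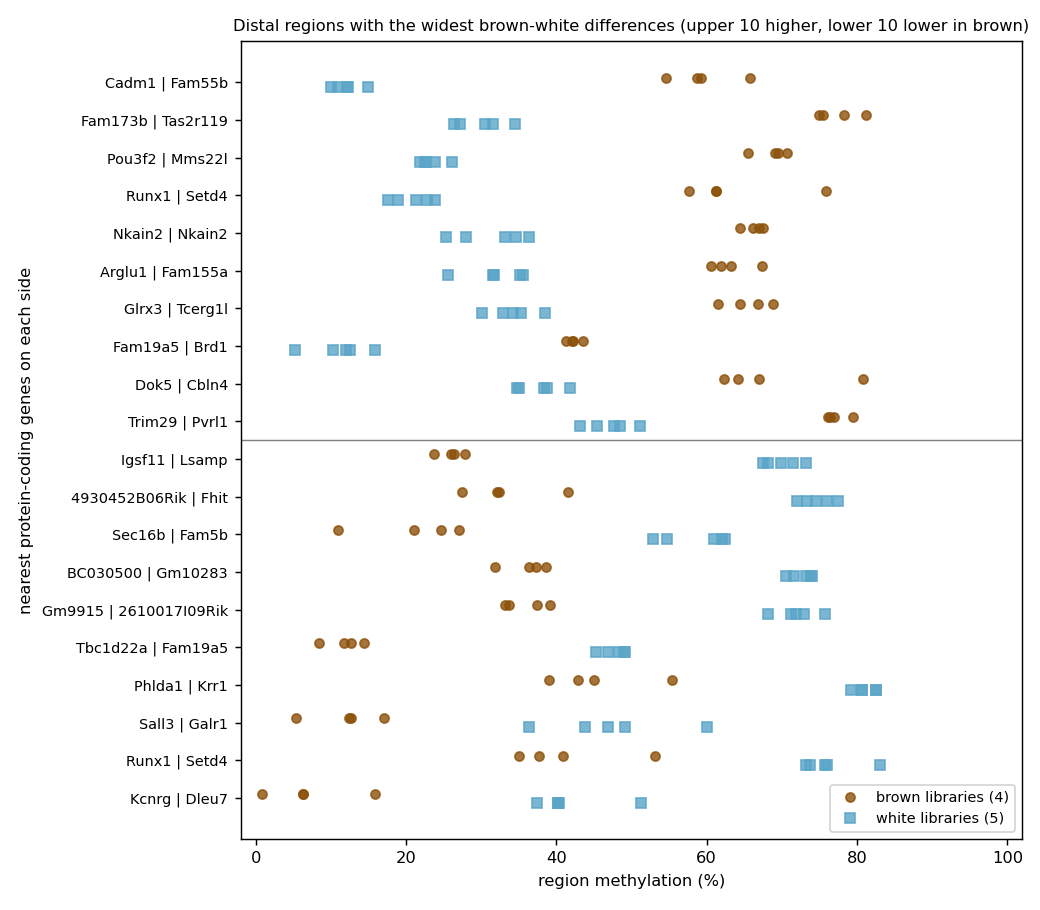
Methylation (%) in each library for the 10 distal regions with the widest difference in each direction, named by the nearest protein-coding gene on each side; circles are the 4 brown and squares the 5 white libraries. The brown and white libraries do not overlap in any of the 20 regions, with differences from −44.07 to 47.5 points.

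Most called regions had no called neighbour. When those within 50000 bp of each other were joined, 359 of the 524 stayed single and 165 formed 73 clusters of 2 or more, 31 with all members lower in brown, 15 with all higher and 27 with both directions. The largest, chr5:112310192-112387430, spanned 77239 bp between C130026L21Rik and Cryba4, a lens crystallin gene, and 5 of its 11 distal regions were called, all lower in brown. Their mean was 47.5%, 46.1%, 45.0% and 48.2% in BAT day 0, day 4, day 6 and BAT + NE, 70.3% and 68.9% in BWAT and 68.8%, 70.8% and 70.5% in WAT. The widest of them, chr5:112386796-112386935, was at 21.8% ± 3.67 in brown (SD, n = 4) against 56.1% ± 2.40 in white (SD, n = 5). It held 20 cytosines, each at least 10 points lower in BAT at all 3 days, which was the longest such run. A region at 74.2 kb from the start of the cluster, just before it at 76.6 kb, stood at 75.2% in brown and 73.98% in white (limma adjusted p = 0.824). The nearest genes of any type were E130006D01Rik, 119447 bp from the cluster, and Miat, 254818 bp from it.

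The other named clusters held 3 or 4 called regions. Between Med13l and Tbx3, a T-box factor of limb and mammary development whose gene lay 679618 bp away, 4 of 5 distal regions within 51335 bp were called, 3 of them lower in brown with differences of −5.01 to −14.62 points and 1 higher by 9.89 points. Between Trim29 and Pvrl1 4 of 6 were called, of which 3 were higher by 10.3 to 30.01 points and 1 was lower, with a difference of −8.34 points. Between Gpatch2, 56563 to 66999 bp away, and Esrrg, which encodes the oestrogen-related receptor gamma of oxidative metabolism and lay 189978 to 200358 bp away, all 3 distal regions within 10547 bp were called, at 79.3% against 93.2% in white, 59.9% against 71.1%, and 27.7% against 10.9%. Beside the end of Rps6kc1, 5541 bp away, with the lymphatic endothelial homeodomain gene Prox1 507900 bp off on the other side, 3 of 4 distal regions were called and these were lower, at 46.2% in brown against 74.5% in white for the widest. Near Kif26a, a kinesin-like gene, 3 of 5 regions were called, all lower in brown, the widest at 47.2% against 71.1%.

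**Figure D4:**
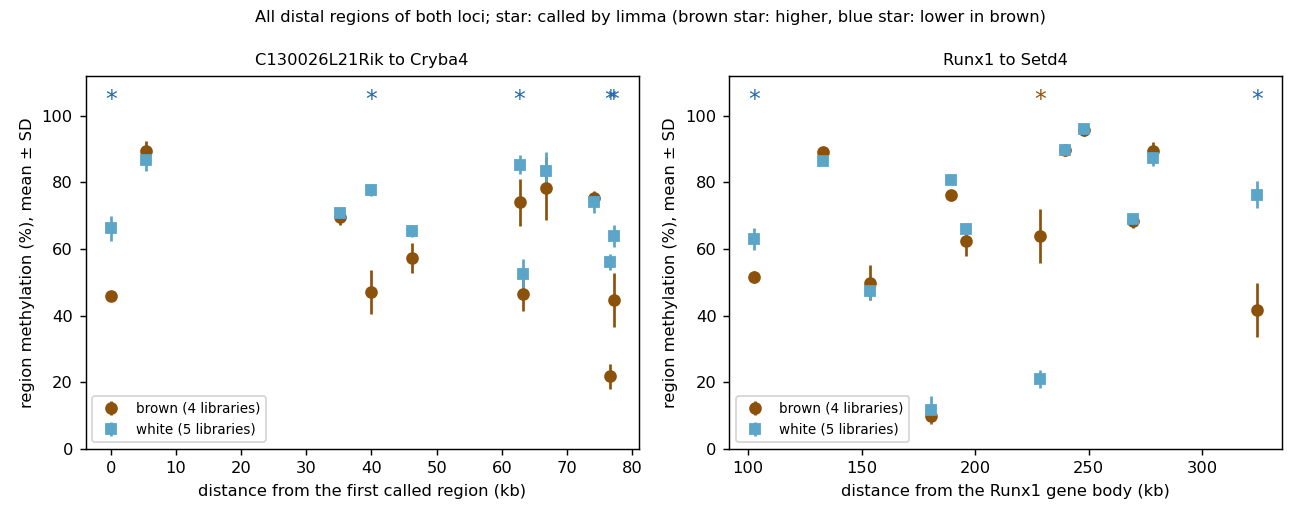
Methylation (%), mean ± SD over 4 brown and 5 white libraries, of every distal region in the largest cluster against distance from its first called region, and of every distal region between Runx1 and Setd4 against distance from the Runx1 gene body, both in kb; stars mark called regions. In the left plot 5 of 11 regions were lower in brown, and in the right plot 1 of 12 was higher and 2 were lower.

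Counts by flanking gene used lists of genes chosen for this tissue with earlier results of these data known. A developmental transcription factor was the nearest gene of any type on either side of 232 distal regions. Of these 42 were called (18.1%, 18 higher and 24 lower in brown), against 13.3% of all distal regions. For brown fat and thermogenesis genes it was 5 of 23 (21.7%, 1 higher and 4 lower in brown). Of these 5, 3 were the neighbouring regions of the Esrrg cluster given above. For white and beige fat genes it was 1 of 17 (5.88%) and for adipogenic regulators 1 of 15 (6.67%). Counted by the nearest protein-coding gene, an alternative chosen after seeing the data, developmental transcription factors had 67 of 406 (16.5%). Brown fat and thermogenesis genes then had 10 of 53 (18.9%, 6 higher and 4 lower in brown). White and beige fat genes had 1 of 17 (5.88%) and adipogenic regulators 3 of 39 (7.69%). No test was made of these shares, and neighbouring regions are not independent. By the nearest protein-coding gene, Zfhx3, a zinc finger homeodomain factor, had 2 higher and 4 lower of 31, the same counts as Psmd7. Irx1, an Iroquois factor, had 3 higher and 1 lower of 10. Pitx1, which specifies the hindlimb, had 2 lower of 5 and Barx2, a homeodomain factor, 2 lower of 9. Among brown fat genes Bmp7, a growth factor of brown adipogenesis, had 2 higher of 11, and all 4 regions with Esrrg on one side were called, 1 higher and 3 lower. Ppargc1a, the coactivator of thermogenesis, had 6 distal regions and none was called by limma (largest difference 7.23 points).

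Few distal regions were called for a change after day 0, as over the whole table. In limma 4 of 3935 (0.102%) passed between later days and day 0, 2 higher and 2 lower at later days. Of all regions 0.173% passed (0.055% higher and 0.118% lower). In 301 distal regions the unadjusted p was under 0.05. With 2 libraries at day 0, a region that was not called may still have changed. At chr8:129298780-129298918, between Irf2bp2, a transcriptional corepressor gene, and Tomm20, of the mitochondrial import machinery, methylation was 90.3%, 57.5% and 41.9% at BAT days 0, 4 and 6 and 36.6% in BAT + NE. It was 85.3%, 50.1% and 35.0% at WAT days 0, 4 and 6, and 56.1% and 36% in BWAT of days 4 and 6. Levels were lower at day 6 than at day 4 in BAT, WAT and BWAT alike (later minus day 0 −43.06 points, log2 odds −3.07, SE 0.39, adjusted p = 0.0174). At chr10:118187183-118187266, 109139 bp from the kinase gene Dyrk2, it was 49.8%, 18.01% and 16.8% at BAT days 0, 4 and 6, 14.2% in BAT + NE, 47.4%, 20.9% and 21.8% at WAT days 0, 4 and 6, and 19.4% and 15.9% in BWAT. Here the lower level had been reached by day 4 (−30.51 points, log2 odds −2.06, SE 0.19, adjusted p = 0.00342).

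The 2 regions that gained methylation did so in the libraries of both lineages. At chr7:137015997-137016141, between Wdr11 and the fibroblast growth factor receptor gene Fgfr2, the later libraries averaged 33.8% and the day 0 libraries 14.6%, with an adjusted p of 0.0174. Levels were 14.7%, 35.8% and 40.8% at BAT days 0, 4 and 6, 32.0% in BAT + NE, 14.5%, 30.6% and 37.1% at WAT days 0, 4 and 6, and 29.6% and 30.4% in BWAT. At chr8:27549563-27549667, between Thap1 and Zfp703, the later libraries averaged 27.8% and the day 0 libraries 12.8% (adjusted p = 0.0178). There the levels were 13.6%, 25.8% and 31.8% at BAT days 0, 4 and 6, 26.97% in BAT + NE, 12.01%, 27.5% and 29.6% at WAT days 0, 4 and 6, and 28.6% and 24.02% in BWAT. In all 4 regions both day 0 libraries lay outside the range of the 7 later ones. With 2 libraries at day 0 the calls depended on them. None held without BAT day 0, with adjusted p-values of 0.118 to 0.334, and without WAT day 0 only the region near Dyrk2 held. The estimates kept their direction. Between Wdr11 and Fgfr2 the log2 odds were 1.41 without BAT day 0, against 1.53 with all libraries. Between Thap1 and Zfp703 they were 1.40 against 1.33, between Irf2bp2 and Tomm20 −2.79 against −3.07 and near Dyrk2 −1.86 against −2.06. With BAT and WAT alone limma called 0 distal regions (287 at unadjusted p under 0.05).

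**Figure D5:**
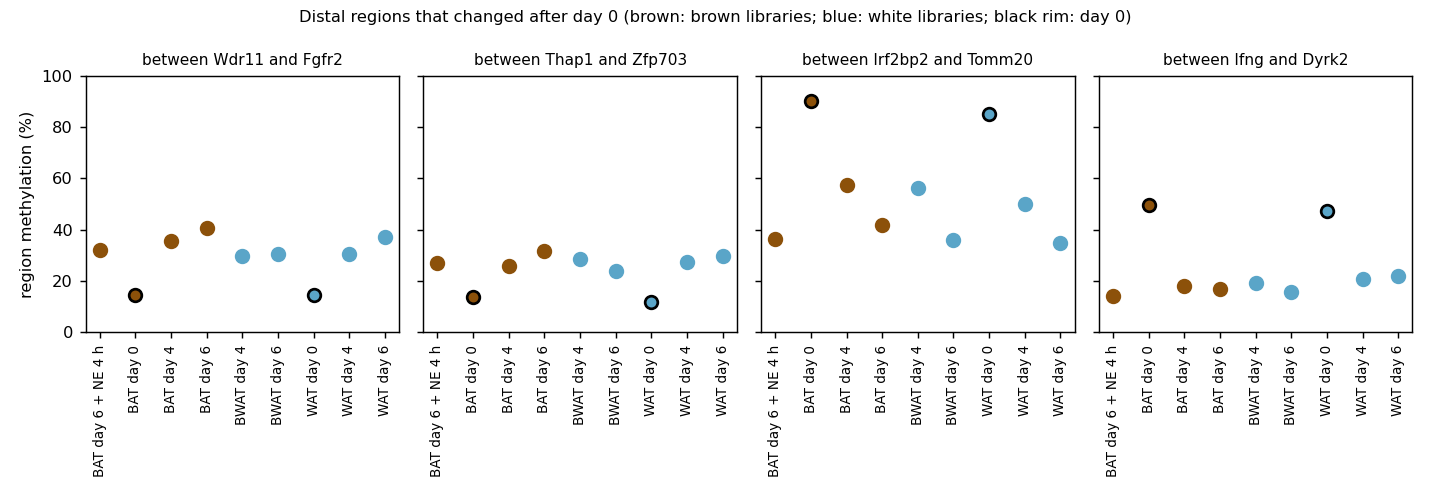
Methylation (%) in each library at the 4 distal regions called between later days and day 0, named by their flanking protein-coding genes. Both day 0 libraries, with a black rim, lie below the later ones in the first 2 plots and above them in the last 2, where later libraries averaged 44.7% against 87.8% at day 0 and 18.1% against 48.6%.

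A change after day 0 that differed between the lineages was called at 1 distal region, which was the only one in the whole table (0.00149%), with 200 distal regions at unadjusted p under 0.05. At chr3:73994542-73994660, between Bche and Zbbx, BAT was at 100%, 88.6% and 91.8% at days 0, 4 and 6 and BAT + NE at 91.0%. WAT was at 86.2%, 90.8% and 91.4% at days 0, 4 and 6, and BWAT at 92.1% and 91.6%. The interaction was −4.24 in log2 odds (SE 0.34, adjusted p = 0.0495). It rested on 1 day 0 library in each lineage and on a level at the ceiling, and in all 10 alternative fits that could be run adjusted p-values were 0.0797 to 0.501.

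Not all sequence far from genes was methylated. In 240 distal regions (6.10%) all 9 libraries were below 30%, and in 2224 (56.5%) all were above 70%. The 240 had a median of 12.2 CpGs in 500 bp and an observed over expected CpG ratio of 0.406, with 45 above 0.6, whereas the other distal regions had 8.5 CpGs and a ratio of 0.320. The low region with the most cytosines, chr17:69190556-69191220, lay between L3mbtl4 and Epb4.1l3 and held 62 cytosines at 0.800 to 1.40% in the 9 libraries. The stretch near Efcab1 shown above, chr16:15085061-15085303 with 54 cytosines, was at 0.350 to 1.06%. Others were chr4:123855806-123856154 (1.35 to 3.05%), chr12:23255064-23255647 (5.42 to 11.95%), chr18:23469081-23469227 near Dtna (1.11 to 1.80%) and chr13:3357872-3358280 (1.79 to 2.62%). Of the 240, 40 were called between brown and white, 17 higher and 23 lower in brown (16.7%, against 13.3% of all distal regions). In 21 regions all brown libraries were below 30% and all white libraries at or above it, and in 15 the reverse held. A full switch, with all libraries of one lineage below 30% and all of the other above 70%, occurred in 0 of 3935 regions.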

How the data were processed

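Methylation was measured by RRBS in 9 libraries. According to the study's methods, DNA was cut with MspI and TaqαI, size-selected, bisulfite-converted and sequenced from both ends, and the submitters' processing notes name Bowtie (version not given in the sources used here) and mm9. The authors retained autosomal CpG cytosines covered by 10 or more reads in each library, and their deposited values are the percent methylated per cytosine and library, without read counts. The Fisher test of the study therefore could not be run, and depth is unknown. Digestion sites are rebuilt during library preparation, so that cytosines in CCGG or TCGA were also left out as an alternative.

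Distances came from GENCODE vM1 (promoters −1000 to +500 bp), sequence from NCBIM37. Region levels (at least 4 cytosines, gaps up to 300 bp) were tested with limma 3.58.1 in R 4.3.3 on log2((level + 1)/(100 − level + 1)), lineage plus day 0 against later days, Benjamini-Hochberg over 67233 regions. Single values had exact two-sided permutation tests over libraries (126 or 36 splits). The fit was also run on simulated data with independent noise in each library, which does not cover libraries that share a culture. Named were the 10 widest called lineage regions per direction, up to 6 per direction for stage, up to 4 for the interaction, the 6 largest clusters and the 6 low regions with most cytosines. Other flanking genes were named after their values were seen. The rule for members used position alone, but the rule and the gene lists were chosen with earlier results of these data known.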

Additional observations from a re-analysis of the deposited data

Results flagged for a closer look

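In 52 checks of 4 brown or 5 white libraries at the named regions, 5 had 1 library far from the others. Chance alone gives about 1 in 20, but 3 of the 5 were day 0 libraries at regions named because day 0 differed, so the number is not read against that rate. At chr16:93150616-93150734 near Runx1, BWAT day 6 was at 83.1% while the other white libraries ran from 73.2 to 76.0%. At chr14:62763680-62763768 near Dleu7, BWAT day 4 was at 51.3% and the other white libraries at 37.5 to 40.4%. At chr10:118187183-118187266 near Dyrk2, BAT day 0 was at 49.8% with the later brown libraries at 14.2 to 18.01%, and WAT day 0 was at 47.4% with the later white libraries at 15.8 to 21.8%. At chr3:73994542-73994660, WAT day 0 was at 86.2% and the other white libraries at 90.8 to 92.1%.

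The distal mean was 0.132 points above day 0 in the brown libraries and −0.50 points from it in the white ones, a difference of 0.635 points between the lineages. All 3 later brown libraries lay above their day 0 and all 4 later white libraries below theirs, but the difference was not tested, and outside CCGG and TCGA sites WAT and BWAT of day 6 were not below day 0. The interaction at chr3:73994542-73994660, −4.24 in log2 odds, also set the lineages apart, and its call was lost in all 10 alternative fits of this region.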

How the results depend on the processing

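The labels give no replicate numbers, and pairing was by day alone, which left 155 lineage calls in the 3 BAT and 3 WAT libraries with day as a factor. The later minus day 0 difference of the distal mean reversed to 0.103 points without cytosines in CCGG or TCGA sites, and leaving out 1 library at a time it ran from −0.74 to 0.447 points, with 0.447 without WAT day 0. The brown minus white mean was −0.86 points with 6 libraries (exact p = 0.1) and −0.78 to −0.58 without single libraries. The lineage difference of the distal excess was −0.225 points without BAT day 0 (exact p = 0.0357) and −0.225 to −0.0152 over all such omissions. Cytosines past the minimum at all days numbered 580 at 20 points, 1238 without restriction sites, 3531, 3565 and 3418 without day 0, 4 or 6, and 699 beyond 200000 bp. Lineage calls numbered 333 without restriction sites (of 2604 regions), 215 with at least 8 cytosines (of 1100), 155 with 6 libraries, 188 beyond 200000 bp (of 1521) and 379 to 437 without single libraries. Of 280 alternative fits of the 20 named lineage regions 279 kept the call. Their choice as the widest calls in the same libraries makes this likely. For lineage, leaving out BAT day 0 and leaving out WAT day 0 gave the same result, so these omissions are not separate fits. Stage calls numbered 2 with at least 8 cytosines, 0 with 6 libraries, 0 beyond 200000 bp and 0 to 5 without single libraries, with 0 without BAT day 0 in limma (241 at unadjusted p under 0.05). On the percent scale the stage calls between Wdr11 and Fgfr2 and between Irf2bp2 and Tomm20 were lost (adjusted p = 0.063 and 0.0974 in limma). The interaction gave 0 calls in limma with an offset of 5, on the percent scale, without restriction sites, with at least 8 cytosines, with gaps up to 100 bp, with a variance trend, and in the 7 omissions that could be fitted (0 to 0), with 48 to 287 regions at unadjusted p under 0.05. It stayed at 1 beyond 200000 bp, a count of the same fit over fewer regions, and could not be fitted without BAT day 0 or WAT day 0. Apart from the fewer regions of the stricter definitions, the cause of these differences was not tested. The alternatives without repeats were not run, since the reference used does not mark repeats. The unknown depth leaves the counting error of single cytosines unknown, and the low level of replication limits all stage results.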

Other observations

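By the nearest protein-coding gene on each side, 10 genes were flanked by 6 or more called distal regions, and those given here were named after the values were seen. C130026L21Rik and Cryba4, Adamts20 and Prickle1, and Psmd7 and Zfhx3 had the same counts within each pair. The 10 genes may therefore not be 10 separate loci. Over all distal regions 13.3% were called. Tcerg1l had 1 higher and 6 lower in brown of 18 (38.9%), and Epha4, an ephrin receptor of axon guidance, had 3 higher and 5 lower of 21 (38.1%). Cadm1 had 2 higher and 5 lower of 37 (18.9%) and Fam19a5 3 higher and 4 lower of 40 (17.5%), shares nearer to that of all distal regions. These shares were not tested.

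Runs of at least 4 neighbouring distal cytosines that were all 10 points or more to the same side at all 3 days numbered 86, of which 29 were higher and 57 lower in BAT, with 480 cytosines in all. Besides the longest, in the Cryba4 cluster, 9 cytosines at chr12:29939467-29939519 between Tssc1 and Myt1l, a zinc finger factor of neurons, averaged 47.7% in BAT and 79.3% in WAT. A run of 9 at chr13:98401917-98402248 between Enc1 and Gm10260 averaged 34.1% in BAT and 70.9% in WAT.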
